A study of Mus musculus with 36 samples.

Results

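The genes described here are 29 members of the cholesterol synthesis pathway and its regulators, taken by gene symbol from the 49315 genes of a table of liver expression. They comprise 5 enzymes that build mevalonate and its pyrophosphate products, 3 that make isoprenoid chains, 3 that carry those chains to lanosterol, 9 that convert lanosterol towards cholesterol, 2 that make dolichol, 3 related genes and 4 regulators. The table holds liver polyA RNA of 36 mice, all male and 11 to 12 weeks old, with 4 in each of 9 groups. The mice differed at residue 441 of LXRalpha, the liver X receptor alpha, a nuclear receptor activated by oxysterols. Control mice carried tryptophan on both alleles (W/W), and CRISPR editing had placed phenylalanine on 1 allele (W/F) or on both (F/F). Each genotype was studied on normal chow, on the MASH diet Teklad TD.96121 with vehicle, and on that diet with T0901317, a synthetic LXR agonist. MASH stands for metabolic dysfunction-associated steatohepatitis, a fatty and inflamed state of the liver. The MASH diet lasted 4 weeks, and T0901317 at 10 mg/kg or vehicle was given daily by gavage for the last 2 weeks. The labels name no promoter or cell type that restricts the edit, and the number of edited founders is not given in the sources used here. The study's design text sets the symbol Nr1h2, that of the related receptor LXRbeta, beside the name LXRalpha, and the name is followed here. Mice on chow came from an independent cohort, and the labels give no gavage for them. The diet, the gavage of vehicle and the cohort therefore cannot be told apart in comparisons with chow. Same-group livers are separate samples per the labels, and p-values measure the spread between these samples.

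Cholesterol is built from acetyl-CoA by way of mevalonate, farnesyl pyrophosphate, squalene and lanosterol, and side branches lead to dolichol and to prenyl groups. The genes of these enzymes are induced by SREBP-2, the product of Srebf2, a transcription factor held in the endoplasmic reticulum as a precursor. When membrane sterols are low, SCAP carries the precursor to the Golgi, where proteases release the active part. When sterols are high, INSIG1 and INSIG2 retain SCAP in the endoplasmic reticulum, so a liver that receives cholesterol from food normally makes less of its own. LXR responds to surplus sterols, and its known target genes serve cholesterol export and fatty acid synthesis.

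Of the 29 members, 25 matched an entry of the RefSeq promoter table for GRCm38.p6, and their windows of 300 bases were searched for motifs on both strands. The letters CCAAT, the core of the element bound by the factor NF-Y, occurred in 22 of the 25 genes (88%), against 41.06% of the 27025 genes in the table. GGGCGG, the core of a GC box, occurred in 22 of the 25 (88%), against 38.2%. The sterol element core TCACNCCA occurred in 3 of the 25 (12%), against 4.969%, and the longer TCACNCCAC, which contains it, in Hmgcs1 alone of the members, against 1.436%. No CCAAT match overlapped a TCACNCCA match in the members' windows. The 250 bases upstream of 6 members follow, 5′ to 3′ on the strand of the gene, with the matches to TCACNCCA and CCAAT in capitals. A CCAAT that lies on the opposite strand reads ATTGG here. Hmgcs1 (chr13:119690101-119690350, plus strand), Mvk (chr5:114444019-114444268, plus strand), Mvd (chr8:122443423-122443672, minus strand) and Nsdhl (chrX:72918271-72918520, plus strand) are shown because their transcripts were higher with T0901317 in W/W mice. Ebp (chrX:8193513-8193762, minus strand) and Insig2 (chr1:121332590-121332839, minus strand, the farthest upstream of its windows) are shown because theirs were not called in that comparison.
Hmgcs1: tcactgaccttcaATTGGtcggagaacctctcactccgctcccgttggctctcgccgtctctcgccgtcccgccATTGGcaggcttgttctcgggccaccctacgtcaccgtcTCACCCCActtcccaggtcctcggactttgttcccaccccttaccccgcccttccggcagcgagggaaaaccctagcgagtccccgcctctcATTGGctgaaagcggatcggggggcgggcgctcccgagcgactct
Mvk: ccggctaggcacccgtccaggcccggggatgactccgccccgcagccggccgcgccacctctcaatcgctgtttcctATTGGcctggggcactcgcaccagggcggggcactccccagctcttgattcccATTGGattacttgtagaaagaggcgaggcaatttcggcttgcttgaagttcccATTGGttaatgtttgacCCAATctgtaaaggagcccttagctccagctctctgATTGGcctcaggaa
Mvd: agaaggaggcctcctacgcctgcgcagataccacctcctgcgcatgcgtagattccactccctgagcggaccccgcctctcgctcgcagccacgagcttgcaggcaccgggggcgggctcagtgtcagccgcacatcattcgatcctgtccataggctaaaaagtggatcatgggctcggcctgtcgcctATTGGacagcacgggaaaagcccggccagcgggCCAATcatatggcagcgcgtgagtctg
Nsdhl: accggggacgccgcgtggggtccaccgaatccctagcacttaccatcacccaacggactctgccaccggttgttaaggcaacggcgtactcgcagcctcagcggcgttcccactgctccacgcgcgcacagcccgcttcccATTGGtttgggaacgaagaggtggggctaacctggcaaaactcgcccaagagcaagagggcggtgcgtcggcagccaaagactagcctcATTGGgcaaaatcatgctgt
Ebp: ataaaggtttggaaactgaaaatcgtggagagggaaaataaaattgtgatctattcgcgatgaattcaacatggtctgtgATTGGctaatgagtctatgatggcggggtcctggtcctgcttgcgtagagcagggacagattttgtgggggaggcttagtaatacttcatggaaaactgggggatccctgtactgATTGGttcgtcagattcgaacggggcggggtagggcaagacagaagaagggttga
Insig2: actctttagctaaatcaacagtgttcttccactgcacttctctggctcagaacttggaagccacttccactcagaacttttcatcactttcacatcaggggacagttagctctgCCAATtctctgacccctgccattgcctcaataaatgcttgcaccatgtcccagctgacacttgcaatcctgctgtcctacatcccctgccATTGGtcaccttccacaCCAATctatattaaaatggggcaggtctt
Each of the 6 windows holds CCAAT at least once. That of Insig2 is the only one of its 3 windows that does, the other two holding GGGCGG, and Hmgcs1 alone among them holds the sterol element core. A match describes these letters only, and no binding was measured in these livers.

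All 29 members passed the filter of 1 TPM (transcripts per 1e+06, a level corrected for gene length and library total) in at least 4 samples. The depth recovered from the low values was 18.1 to 35.8 M reads (1 M is 1e+06) per library. Fold changes are fitted differences of log2(TPM + 1), which understate the change of low genes, and a gene is called changed at an adjusted p under 0.05 over the 16638 genes tested. The median gene itself differed between groups, by up to 0.70 on the log2 scale for F/F against W/W with vehicle, so counts are also given after the libraries were rescaled to a common median gene. Summed hepatocyte markers ran from 97733 ± 15065 TPM in W/W mice on chow to 53705 ± 2256 in F/F mice with vehicle (SD, n = 4), and Alb was the most abundant of the 8 in every group. Between those groups the mean of Alb went from 57807 to 19352 TPM and that of Hnf4a from 312 to 291 TPM. Ahsg alone of the 8 went the other way, from 10570 to 16235 TPM. The 8 macrophage markers summed to 174 to 234 TPM in W/W mice with vehicle, against 898 to 1389 for W/F and 858 to 1106 for F/F. Within that list the means of 3 markers were lower in F/F than in W/W with vehicle, at 0.354 against 72.3 TPM for Clec4f, 1.58 against 80.5 for Cd5l and 0.733 against 7.6 for Marco, while Gpnmb (519 against 1.18) and Cd68 (289.8 against 10.3) carried the sum. The 5 bile duct markers summed to 53.98 to 61.4, 1163 to 1589.9 and 2908 to 3554 TPM in the same groups, and on chow to 50.1 to 61.5 in W/W and 720.4 to 981 in F/F. Spp1 made up most of that sum, with means of 48.7, 1243 and 3174 TPM with vehicle. The means of Krt19, Krt7, Epcam and Sox9 were also higher in both mutants than in W/W with vehicle. Of the lymphocyte and neutrophil markers, Cd3e, Nkg7 and S100a8 were listed at 0 in at least 1 library. With T0901317 the macrophage sum was 116 to 715 TPM in W/F and 439.9 to 675 in F/F, the bile duct sum 102 to 278 and 756 to 1696, and the sum of the 7 stellate and fibroblast markers 170.3 to 301 and 529 to 967. The last was 688 to 951 TPM with vehicle in W/F and 1238 to 1562 in F/F. The library W/F T0901317 replicate 2 stood apart in its group, with a macrophage sum of 715 TPM against 116 to 214 in the others, a bile duct sum of 278 against 102 to 163 and the lowest hepatocyte sum, 58975 TPM. Among the W/W livers with T0901317, replicate 2 likewise had the highest macrophage and bile duct sums, at 393 and 170 TPM. The part of these cells in the differences between genotypes or with T0901317 was not tested, and in whole liver fewer cells of a type and less RNA per cell cannot be told apart.

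On the MASH diet the livers of W/W mice held far less RNA of the sterol enzymes than on chow. With vehicle, 24 of the 29 members were lower than on chow and 0 were higher, with a median log2 fold change of -1.53, where the median of all genes was -0.05. Among all genes tested, 10.3% were lower and 2.59% higher. After rescaling, 23 members were lower and 0 higher, against 8.44% and 6.98% of all genes. All 20 enzymes from Acat2 to Dhcr7 were among the lower members except Ggps1, which makes the chain used to prenylate proteins. The 29 members together summed to 3339.7 ± 488 TPM on chow and 1166 ± 138 TPM with vehicle (SD, n = 4).

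The isoprenoid enzyme Idi1, which converts isopentenyl pyrophosphate to its reactive isomer, had 78.6, 124, 78.2 and 75.5 TPM in the 4 W/W livers on chow and 2.62, 4.30, 2.50 and 3.73 TPM on the MASH diet with vehicle. Its mean was 27.1-fold lower on the diet (log2 fold change -4.38, SE 0.23, adjusted p = 9.17e-15). Every liver on the diet lay far below every liver on chow, and 87 to 149 reads stood behind each low value. Sqle (chr15:59315077-59331192, plus strand), the squalene epoxidase, had 53.8, 87.1, 72.5 and 63.5 TPM on chow and 1.90, 3.10, 2.09 and 2.48 TPM with vehicle (log2 fold change -4.36, SE 0.17, adjusted p = 4.84e-18). Its groups did not overlap either, and its mean was 28.9-fold lower.

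Among the enzymes of mevalonate synthesis, Hmgcs1, the cytosolic HMG-CoA synthase, had 483, 830.2, 315 and 517 TPM on chow and 47.04, 73.1, 65.5 and 55.9 TPM with vehicle in W/W mice (log2 fold change -3.06, SE 0.21, adjusted p = 7.93e-12). It was the most abundant member on chow, and its lowest chow liver stood above its highest diet liver. Acat2, the cytosolic acetoacetyl-CoA thiolase, fell least of the 5, from 95.9 ± 12.5 to 40.2 ± 7.79 TPM (SD, n = 4; log2 fold change -1.24, adjusted p = 7.05e-07). Beyond lanosterol, Cyp51, the demethylase that acts on lanosterol first, fell from 161 ± 25.7 to 16.1 ± 4.70 TPM (log2 fold change -3.26, adjusted p = 6.72e-12). Ebp, a sterol isomerase, changed least among the lower enzymes, from 204 ± 11.6 to 154 ± 6.64 TPM (log2 fold change -0.40, adjusted p = 0.000733).

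T0901317 raised the transcripts of most sterol enzymes in W/W mice kept on the diet. Against vehicle, 20 of the 29 members were higher and 0 lower, with a median log2 fold change of 1.10, where the median of all genes was 0.06. Among all genes, 7.87% were higher and 2.91% lower. After rescaling, 20 members were higher and 0 lower, against 8% and 5.52% of all genes. The comparison uses the same 4 vehicle livers as the diet comparison in W/W, so the pair of results is not independent.

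Sqle had 35.4, 30.9, 30.7 and 27.8 TPM in the W/W livers given T0901317, where the vehicle livers lay between 1.90 and 3.10 TPM. The difference was 13.1-fold (log2 fold change 3.26, SE 0.17, adjusted p = 2.12e-14), the largest among the members. Fdps, which makes farnesyl pyrophosphate, had 15.6, 18.6, 10.2 and 17.2 TPM with vehicle and 138, 146, 127 and 100.2 TPM with T0901317 in W/W mice (log2 fold change 2.99, SE 0.22, adjusted p = 3.65e-11). Its W/W livers with T0901317 lay within the range of those on chow, which had 141, 171, 91.8 and 128 TPM. Mvd, the decarboxylase that ends the mevalonate steps, had 4.55, 6.32, 4.12 and 3.86 TPM with vehicle and 51.2, 38.8, 37.4 and 36.2 TPM with T0901317 (log2 fold change 2.88, SE 0.24, adjusted p = 6.72e-10). For these 3 genes no liver with T0901317 overlapped a liver with vehicle.

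The return towards chow levels was uneven along the pathway in W/W mice. With T0901317 the mean of Acat2 was 144% of its mean on chow, that of Fdps 96.2% and that of Mvd 94.1%. Idi1 reached only 18.5% and Cyp51 30.02%, with Hmgcs1 at 33.6% and Sqle at 45.1%. The median over the 29 members was 34.6% of chow with vehicle and 68.3% with T0901317. These percentages set the MASH diet mice against a separate cohort and carry no test. All 3 squalene and lanosterol enzymes rose with T0901317 in W/W, and so did 7 of the 9 enzymes beyond lanosterol. Lbr and Ebp were the other two, at log2 fold changes of 0.06 (adjusted p = 0.892) and 0.02 (adjusted p = 0.937). The 2 dolichol enzymes, Nus1 and Dhdds, had 0.18 (adjusted p = 0.297) and 0.08 (adjusted p = 0.754).

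**Figure D1:**
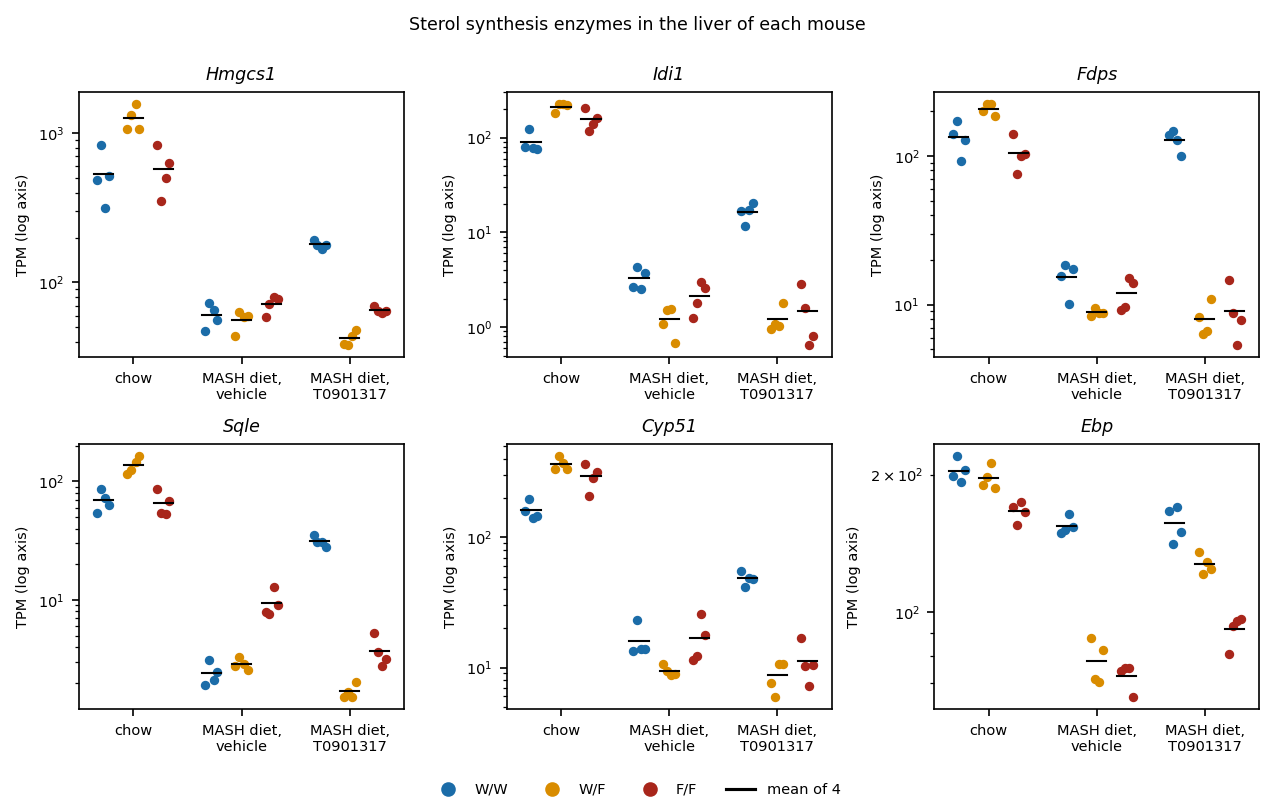
Level in each liver of 6 enzymes of sterol synthesis, as TPM on a log axis, for mice on chow or on the MASH diet with either vehicle or T0901317; points are single mice coloured by genotype and bars are means of 4. With T0901317 the 4 W/W livers stood above those of both mutants for all 6 genes, while with vehicle Sqle was highest in F/F (7.54 to 12.9 TPM).

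All 5 mevalonate enzymes rose with T0901317 in W/W, and none of the 5 was called higher in W/F or F/F on the deposited scale. After rescaling, Acat2 and Mvk were called higher in W/F. In W/F mice T0901317 left 5 members higher and 9 lower than vehicle, with a median log2 fold change of -0.21, against a median of -0.49 over all genes. Among all genes, 6.59% were higher and 59.3% lower. Rescaling turned the split to 12 higher and 2 lower, with a median of 0.34, and the split of all genes to 23.6% and 27.1%. Without W/F T0901317 replicate 2 the counts in W/F were again 5 higher and 9 lower. The macrophage, bile duct and fibroblast sums given above were lower with T0901317 than with vehicle in both mutants, and their part in these counts was not tested. Within the macrophage list, Clec4f, Cd5l and Marco ran the other way in F/F, with means of 30.3, 117 and 3.78 TPM with T0901317. Their means with vehicle there were 0.354, 1.58 and 0.733 TPM. For W/F the means of Clec4f and Marco were also higher with T0901317, and that of Cd5l was lower. The rest of that list had lower means with T0901317 in both mutants. In F/F mice 2 members were higher and 7 lower, with a median of -0.22 against -0.24 over all genes. Among all genes, 3.95% were higher and 31.2% lower there. After rescaling, 4 members were higher and 2 lower in F/F, against 8.32% and 7.98%. The 9 calls in F/F became 5 without F/F T0901317 replicate 3.

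Sqle had 2.77, 3.29, 2.85 and 2.57 TPM in W/F livers with vehicle and 1.52, 1.68, 1.52 and 2.02 TPM with T0901317. In F/F livers it had 7.91, 7.54, 12.9 and 9.07 TPM with vehicle and 5.26, 3.60, 2.76 and 3.15 TPM with T0901317. Sqle was lower with the agonist in both mutants, with log2 fold changes of -0.53 (adjusted p = 0.00687) in W/F and -1.14 (adjusted p = 1.43e-05) in F/F. After rescaling the W/F value was -0.11 (adjusted p = 0.578) and the F/F value -0.88 (adjusted p = 0.00017). Fdps had 8.28, 6.32, 6.61 and 10.9 TPM in W/F livers and 14.5, 8.76, 5.36 and 7.88 TPM in F/F livers with T0901317. Those values overlapped the vehicle livers of the same genotype, which had 8.42, 9.53, 8.81 and 8.83 TPM (W/F) or 9.21, 9.60, 14.99 and 13.9 TPM (F/F).

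The difference between the responses was tested directly. The response of W/F minus that of W/W was lower for 21 of the 29 members and higher for 2, with a median of -1.20 on the log2 scale against -0.54 over all genes. Among all genes 53.2% were lower and 5.27% higher. After rescaling the counts were 17 lower and 4 higher, against 24% and 19.9% of all genes. The response of F/F minus that of W/W was lower for 21 members and higher for 1, with a median of -1.25 against -0.31. Among all genes 27.2% were lower and 3.29% higher, and after rescaling 17 members were lower and 1 higher, against 10% and 7.39%. Both differences use the same W/W livers.

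The largest differences of response were again those of Sqle, Mvd and Fdps. For Sqle the response of W/F minus that of W/W was -3.78 on the log2 scale (SE 0.24, adjusted p = 2.43e-12), and that of F/F -4.40 (SE 0.24, adjusted p = 7.72e-14). Mvd gave -4.15 (adjusted p = 1.89e-10) for W/F and -3.39 (adjusted p = 3.98e-08) for F/F, and Fdps gave -3.15 (adjusted p = 3.67e-09) and -3.39 (adjusted p = 7.74e-09). Ebp went the other way in W/F. Its livers had 87.6, 71.4, 70.2 and 82.4 TPM with vehicle and 135, 121, 128 and 124 TPM with T0901317, without overlap, and the difference of its response from W/W was 0.69 (adjusted p = 3.71e-06).

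**Figure D2:**
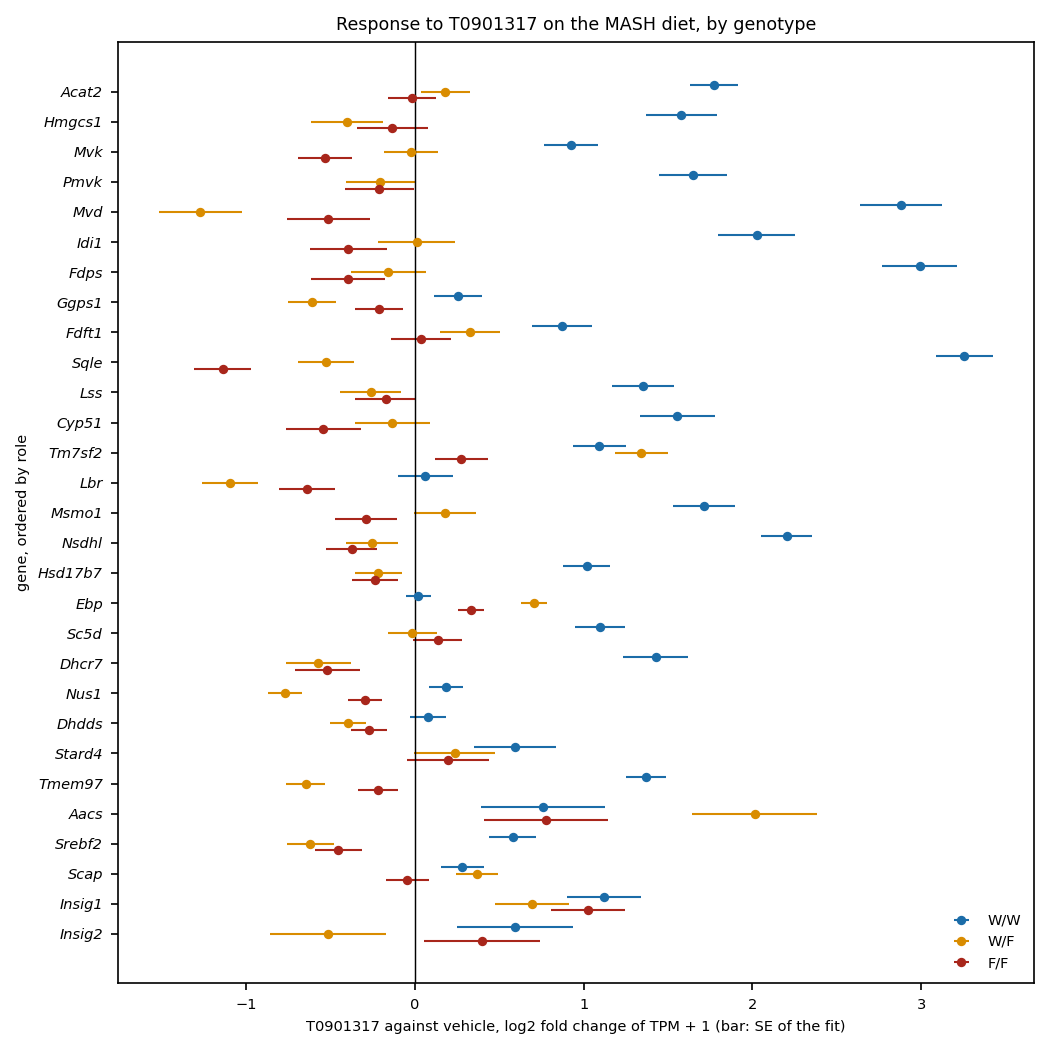
Log2 fold change of TPM + 1 with T0901317 against vehicle for the 29 members, by genotype, with points for the fitted change and bars for its SE, and genes ordered by role. From Acat2 to Idi1 and Fdps the W/W points lie between 0.93 and 2.99, and the points of W/F and F/F lie between -1.27 and 0.18.

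Given T0901317, the mutants held much less of these transcripts than W/W. In W/F 23 members were lower and 0 higher than in W/W (median -1.56), and 25 of the 29 had groups that did not overlap, as had 15.1% of all genes. Among all genes 6.23% were lower and 3.65% higher, and after rescaling 22 members were lower and 0 higher, against 8.28% and 5.08%. In F/F 23 members were lower and 4 higher (median -1.62), where 6.96% of all genes were lower and 56.3% higher. After rescaling 25 members were lower and 0 higher in F/F, against 22.7% and 24.2%. Fdps was 15.9-fold lower in W/F and 14.00-fold lower in F/F than in W/W. The members summed to 2429.7 ± 86.7 TPM in W/W, against 898 ± 69.5 for W/F and 1013 ± 71.2 for F/F (SD, n = 4). Summed hepatocyte markers in those groups were 81035 ± 4731, 74039.8 ± 10975 and 68528 ± 7399 TPM. Alb was the largest part of that sum, and the means of Alb, Apoc3, Ttr and Fgb were lower in both mutants than in W/W. Those of Apoa1, Ahsg, Serpinc1 and Hnf4a in the same list were higher in both mutants. Ahsg had means of 5247 TPM in W/W, 9958 for W/F and 11643 for F/F, and Apoa1 had 10749, 14626 and 13808 TPM.

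The fall on the MASH diet was present in all 3 genotypes, and 22 members were lower than on chow in each of them, as were 1.76% of all genes. After rescaling the count was 22 again, with Tmem97 in place of Ebp, against 4.3% of all genes. In W/F 24 members were lower and 2 higher, with a median log2 fold change of -2.94 against 0.39 over all genes. Among all genes 8.53% were lower and 52.4% higher, and after rescaling 26 members were lower and 0 higher, against 27% and 27.9%. In F/F 22 members were lower and 1 higher, with a median of -1.71 against 0.32. Among all genes 9.27% were lower and 46.5% higher, and after rescaling 24 members were lower and 0 higher, against 21.3% and 25.7%. Idi1 had 180.5, 224, 225 and 218 TPM in W/F livers on chow and 1.09, 1.51, 1.56 and 0.674 TPM with vehicle, a 175-fold lower mean (log2 fold change -6.61, SE 0.23, adjusted p = 7.51e-20). The low values rest on 23 to 50 reads per liver, and no liver of one group came near the other.

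The size of the fall differed between genotypes. For the diet response of W/F minus that of W/W, 18 members were lower and 5 higher (median -0.93 against 0.49 over all genes). Among all genes 5.13% were lower and 49.5% higher, and after rescaling 22 members were lower and 0 higher, against 19.1% and 21%. The 3 smallest values were those of Aacs at -2.58, Tm7sf2, a sterol reductase, at -2.58 (adjusted p = 8.7e-10) and Idi1 at -2.22 (adjusted p = 1.74e-06). Msmo1, a sterol methyl oxidase not among those 3, gave -1.83 (adjusted p = 1.25e-06). For F/F minus W/W, 4 members were lower and 8 higher (median 0.09 against 0.41), where 4.54% of all genes were lower and 41.5% higher. After rescaling 9 members were lower and 3 higher, against 12.3% and 14.5%. Sqle and Mvd fell less in F/F than in W/W, with differences of 1.68 (adjusted p = 3.47e-06) and 1.89 (adjusted p = 9e-05).

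On chow, W/F livers held more of the sterol enzymes than W/W livers. Of the 29 members 11 were higher and 0 lower (median 0.43 against 0.03 over all genes), where 0.198% of all genes were higher and 0.288% lower. After rescaling 11 were higher and 0 lower, against 0.192% and 0.409%. The 11 were Hmgcs1, Mvk, Idi1, Fdft1, Sqle, Lss, Cyp51, Msmo1, Nsdhl, Hsd17b7 and Srebf2. Hmgcs1 had 1075, 1318, 1566 and 1075 TPM in W/F livers, each above the highest W/W liver at 830.2 TPM (log2 fold change 1.30, SE 0.21, adjusted p = 0.000573). Nsdhl, which removes a methyl group from sterols, had 106, 106, 94.5 and 93.5 TPM in W/W and 193, 235, 209 and 183 TPM in W/F (log2 fold change 1.02, SE 0.15, adjusted p = 0.000203). Its W/F livers all lay above its W/W livers. When only these 2 groups were fitted, 1 member, Nsdhl, remained called. Summed hepatocyte markers were 77101 to 112843 TPM in W/W and 68306 to 101103 TPM in W/F.

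F/F livers on chow shared that pattern in part at most. There 7 members were higher and 8 lower than in W/W (median -0.09 against 0.29 over all genes), where 43% of all genes were higher and 3.65% lower. After rescaling 0 members were higher and 16 lower, against 15.9% and 14%. Insig1 gave the largest difference and is described with the regulators. Aacs, which activates acetoacetate for lipid synthesis, had 48.2, 33.5, 26.7 and 81.6 TPM in W/W livers and 23.6, 8.38, 13.9 and 9.17 TPM in F/F livers (log2 fold change -1.70, SE 0.37, adjusted p = 0.000478). Its groups did not overlap, and its W/W livers were themselves widely spread. Cyp51 had 161 ± 25.7 TPM in W/W and 294 ± 65.9 TPM in F/F (SD, n = 4; log2 fold change 0.85, adjusted p = 0.00253), and after rescaling 0.46 (adjusted p = 0.0959). Idi1 had 206, 117, 138 and 159 TPM in F/F, against 75.5 to 124 TPM in W/W. After rescaling its range was 116 to 181 TPM in F/F and 85.3 to 143 TPM in W/W.

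**Figure D3:**
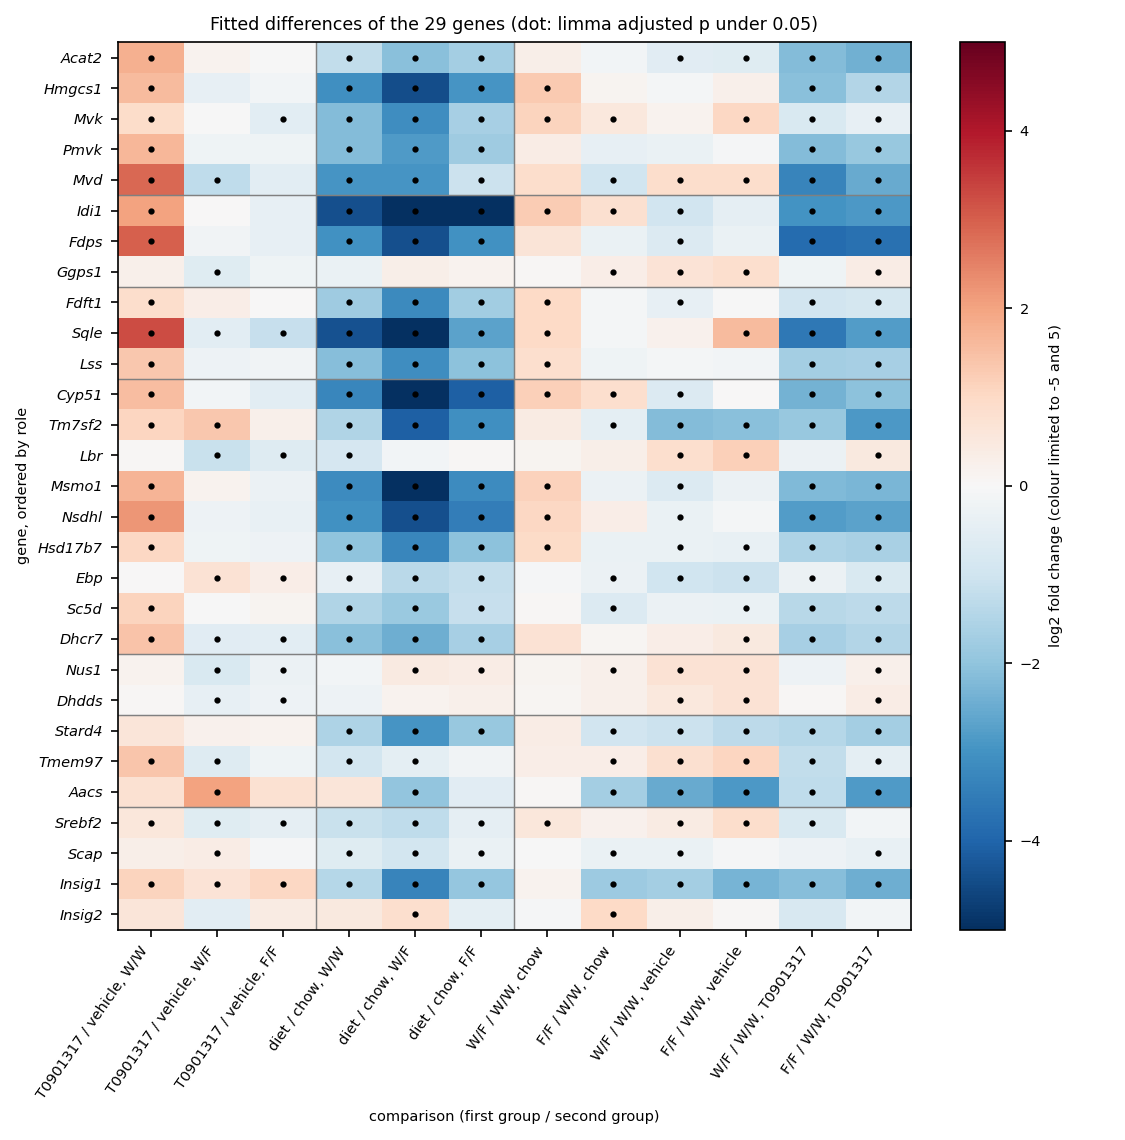
Fitted log2 fold changes of the 29 members, ordered by role, in the 12 comparisons of 2 groups, with colour limited to -5 and 5 and a dot where the adjusted p was under 0.05. In the diet columns 22 to 24 members in each genotype are blue and carry a dot, and in the T0901317 column of W/W 20 are red and carry one.

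With vehicle on the MASH diet, the comparison of mutants with W/W turned on the scaling. In W/F 7 members were higher and 14 lower (median -0.32 against 0.52 over all genes), where 61.6% of all genes were higher and 6.83% lower. After rescaling 1 member was higher and 19 lower, against 27.6% and 25.5%. In F/F 10 members were higher and 8 lower (median -0.04 against 0.70), where 69.3% of all genes were higher and 7.13% lower. After rescaling 2 were higher and 19 lower in F/F, against 31% and 28.1%. Hmgcs1 and Cyp51 changed sign in F/F, from 0.26 to -0.60 (adjusted p = 0.0113) and from 0.03 to -0.78 (adjusted p = 0.00194).

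Several members differed beyond that shift. Tm7sf2 had 33.1, 50.4, 51.5 and 37.2 TPM in W/W livers with vehicle. W/F livers had 8.94, 9.05, 7.34 and 9.76 TPM, and F/F livers 9.60, 9.12, 10.02 and 8.58 TPM. The log2 fold changes were -2.15 (adjusted p = 2.04e-12) and -2.07 (adjusted p = 9.72e-13), and no mutant liver reached the lowest W/W liver. Sqle was higher in F/F than in W/W with vehicle (log2 fold change 1.60, adjusted p = 8.21e-10) and remained so after rescaling (0.89, adjusted p = 1.17e-05). Lbr, the lamin B receptor, which also reduces sterols, had 2.36, 3.15, 2.94 and 3.18 TPM in W/W and 6.66, 8.29, 8.48 and 8.21 TPM in F/F (log2 fold change 1.19, SE 0.16, adjusted p = 1.44e-07), and 0.47 after rescaling (adjusted p = 0.00235). The summed bile duct and macrophage markers were higher in the same F/F livers, with the 3 macrophage markers named above lower, and their part in the level of Lbr was not tested.

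Among the regulators, Insig1 (chr5:28071363-28078662, plus strand), itself a target of SREBP-2, was the only member called higher with T0901317 in all 3 genotypes on the deposited scale, where 0.469% of all genes were. After rescaling Tm7sf2 and Sc5d, the sterol desaturase, were called as well, against 0.992% of all genes. Insig1 had 127, 200.2, 106 and 125 TPM with vehicle and 290.5, 301, 307 and 284 TPM with T0901317 in W/W (log2 fold change 1.12, SE 0.22, adjusted p = 0.000669). In W/F it had 47.6, 44.8, 37.8 and 34.2 TPM with vehicle and 81.1, 42.2, 63.4 and 89.4 TPM with T0901317 (log2 fold change 0.69, SE 0.22, adjusted p = 0.00683). In F/F it had 24.7, 20.6, 25.4 and 35.5 and 65.5, 61.1, 45.8 and 46.3 TPM (log2 fold change 1.02, SE 0.22, adjusted p = 0.000965). The groups overlapped in W/F alone, through a single liver with T0901317 at 42.2 TPM. That liver was replicate 2, the one with the high macrophage sum, and without it the log2 fold change of Insig1 in W/F was 0.91 (adjusted p = 0.000593). The differences of response from W/W were -0.43 (adjusted p = 0.242) for W/F and -0.10 (adjusted p = 0.843) for F/F, with SE 0.31 and 0.31.

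The level of Insig1 differed between genotypes on both diets. On chow it had 309.9, 383, 378 and 388 TPM in W/W livers and 318, 346, 559.7 and 457 TPM in those of W/F mice. F/F livers had 159, 76.8, 94.8 and 93.3 TPM. The F/F livers lay below all others, with a 3.44-fold lower mean than W/W (log2 fold change -1.82, SE 0.22, adjusted p = 1.53e-07). With vehicle its log2 fold change against W/W was -1.71 (adjusted p = 7.6e-08) in W/F and -2.33 (adjusted p = 8.28e-11) in F/F. With T0901317 it was -2.14 (adjusted p = 1.94e-08) and -2.43 (adjusted p = 3.5e-10). None of these 5 directions changed after rescaling.

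Srebf2 (chr15:82147181-82205379, plus strand), which encodes SREBP-2, moved in the same direction as most enzymes in W/W, over a narrower range. In W/W it had 27.5, 34.9, 37.6 and 34.5 TPM on chow, 11.99, 17.7, 14.2 and 16.3 TPM with vehicle and 20.3, 24.3, 24.03 and 22.5 TPM with T0901317. Both the fall on the diet (log2 fold change -1.11, SE 0.14, adjusted p = 2.86e-06) and the rise with T0901317 (log2 fold change 0.58, SE 0.14, adjusted p = 0.00538) had groups that did not overlap. With T0901317 the W/F livers had 11.3, 11.7, 13.5 and 15.3 TPM, against 20.03, 20.2, 20.5 and 20.5 TPM with vehicle (log2 fold change -0.62, SE 0.14, adjusted p = 0.000282). That difference was -0.05 after rescaling (adjusted p = 0.748). The responses of Srebf2 to T0901317 in W/F and F/F differed from W/W by -1.20 (adjusted p = 8.71e-06) and -1.03 (adjusted p = 0.000337) on the deposited scale. The median of all genes in those differences was -0.54 and -0.31. After rescaling the response of Srebf2 was still called lower in both mutants. Its higher level in W/F on chow had an adjusted p of 0.0484, which came to between 0.0589 and 0.281 without W/W chow replicate 1, 2 or 4 or W/F chow replicate 2, 3 or 4.

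Scap (chr9:110333288-110384950, plus strand) and Insig2 (chr1:121304353-121332589, minus strand) varied less between the 9 groups than Srebf2 and Insig1 did. Scap fell on the diet in W/W from 53.1 ± 10.3 to 33.8 ± 3.62 TPM (SD, n = 4; log2 fold change -0.62, SE 0.13, adjusted p = 0.00137), with an adjusted p of 0.0686 when only those groups were fitted. With T0901317 it had 42.5, 41.5, 40.96 and 39.3 TPM in W/W (log2 fold change 0.28, SE 0.13, adjusted p = 0.171), above every vehicle liver. Insig2 had 85.04, 86.4, 84.7 and 179.7 TPM on chow, 106, 148, 219.6 and 122 TPM with vehicle and 214, 235, 200.4 and 218 TPM with T0901317 in W/W. Its vehicle livers overlapped both other groups, and its log2 fold changes were 0.47 (adjusted p = 0.432) on the diet and 0.59 (adjusted p = 0.322) with T0901317. Their SE of 0.34 was among the widest of the members, only Aacs being wider at 0.37. Elsewhere Insig2 was called higher in F/F than in W/W on chow (log2 fold change 1.00) and on the diet in W/F (0.82). Leaving out single replicates ended those calls in 3 of 8 and 5 of 8 cases. After rescaling 0 members were higher in either comparison. Scap was called higher with T0901317 in W/F and lower on the diet in F/F. It was also called lower than W/W in F/F on chow and in W/F with vehicle. These calls of Scap ended in 2, 4, 5 and 3 of 8 cases. On the diet in W/F, Scap was called lower too, with 45.5 to 56.1 TPM on chow and 25.1 to 27.7 TPM with vehicle. No omission of a single replicate ended that call.

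**Figure D4:**
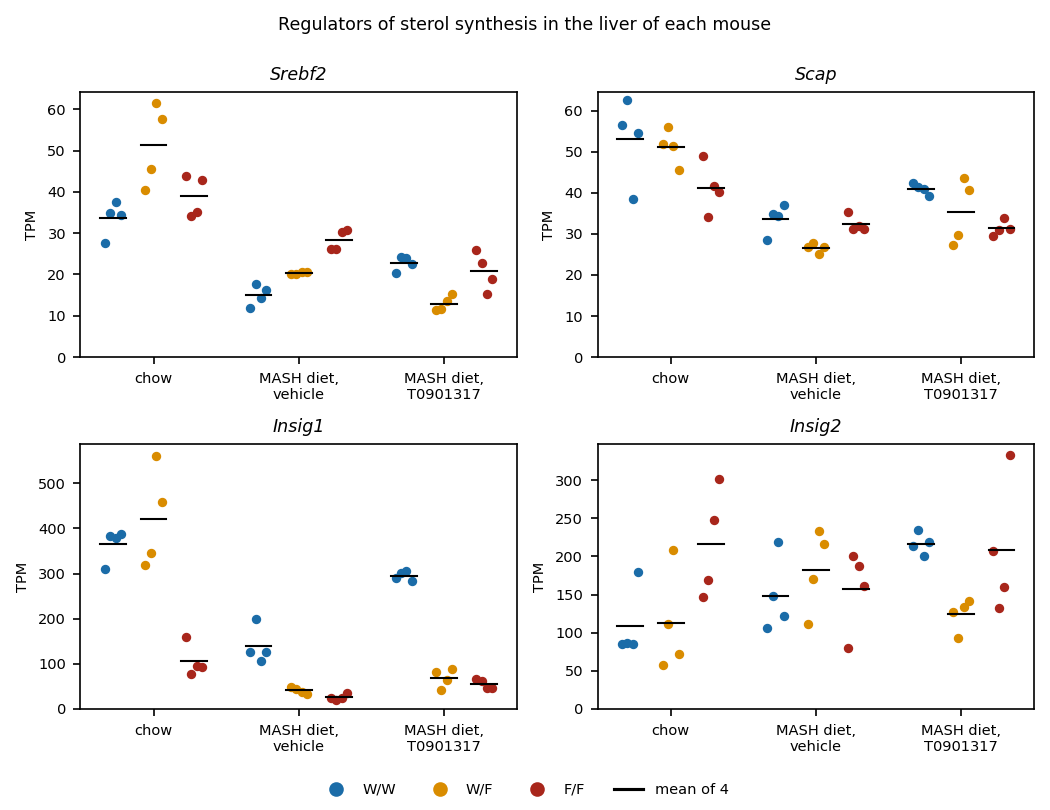
Level in each liver of the 4 regulators Srebf2, Scap, Insig1 and Insig2, as TPM on linear axes from 0, by condition; points are single mice coloured by genotype and bars are means of 4. Insig1 in F/F stayed between 20.6 and 159 TPM in all conditions, while W/W livers ranged from 106 to 388 TPM.

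Ggps1, Nus1 and Dhdds stayed near the same level in W/W, whereas Tmem97 did not. Ggps1 had 6.73 TPM on chow, 5.21 with vehicle and 6.39 with T0901317 in W/W, and neither the diet nor T0901317 gave a call, at -0.33 (adjusted p = 0.135) and 0.26 (adjusted p = 0.292). Nus1 and Dhdds, the subunits of the dolichol chain synthase, were higher in W/F and F/F than in W/W with vehicle, by 0.72 (adjusted p = 3.67e-07) and 0.73 (adjusted p = 1.29e-07) for Nus1 and by 0.52 (adjusted p = 7.68e-05) and 0.74 (adjusted p = 2.87e-07) for Dhdds. Those shifts were near the median gene at 0.52 and 0.70, and after rescaling Nus1 stood at 0.07 and -0.11 and Dhdds at -0.11 and -0.09. Tmem97, an endoplasmic reticulum protein linked to sterol transport, rose with T0901317 in W/W from 78.8 ± 9.07 to 204 ± 9.45 TPM and fell in W/F from 137 ± 7.26 to 87.1 ± 7.24 TPM (SD, n = 4). Its log2 fold changes were 1.37 (adjusted p = 8.97e-10) and -0.65 (adjusted p = 1.95e-05), and the W/F value after rescaling was -0.05 (adjusted p = 0.763).

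Aacs had 15.6, 11.7, 8.42 and 7.99 TPM in W/F livers with vehicle and 56.3, 39.5, 37.8 and 51.8 TPM with T0901317 (log2 fold change 2.01, SE 0.37, adjusted p = 2.24e-05). Every W/F liver given T0901317 was above every vehicle liver, and the rise was the largest among the 29 members in that genotype. In W/W, Aacs had 77.8, 89.7, 28.9 and 94.5 TPM with vehicle and 117, 107, 122 and 105 TPM with T0901317 (log2 fold change 0.76, SE 0.37, adjusted p = 0.215). Stard4, a carrier of sterols between membranes, was lower on the diet in W/W (log2 fold change -1.53, adjusted p = 8.83e-05) and not called with T0901317 (log2 fold change 0.59, adjusted p = 0.121). With T0901317 its mutant livers stood below W/W, with 13.3 ± 3.28 TPM (W/F) or 10.6 ± 2.64 TPM (F/F) against 37.1 ± 9.03 TPM (W/W; SD, n = 4).

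A second list held 25 other genes of the pathway and its supply, among them the SREBP proteases, partners of INSIG, electron donors, prenyl transferases and acetyl-CoA enzymes. In W/W, 7 of the 25 were higher with T0901317 and 0 lower, against 5 and 12 in W/F and 3 and 6 in F/F. Of all genes, 7.87% were higher and 2.91% lower in W/W, 6.59% and 59.3% in W/F, and 3.95% and 31.2% in F/F, so the counts of lower genes in the mutants were not above those shares. On the diet 3 were higher and 6 lower in W/W, against 2.59% and 10.3% of all genes. After rescaling the T0901317 counts were 6 higher and 1 lower for W/W, 15 and 3 for W/F, then 5 and 0 for F/F, beside 8% and 5.52%, 23.6% and 27.1%, and 8.32% and 7.98% of all genes. Acss2, which makes acetyl-CoA from acetate, gave -1.87 on the diet in W/W (adjusted p = 1.98e-06), on the log2 scale, and rose with T0901317 by 2.50 (adjusted p = 3.43e-09). Acly, which makes it from citrate, had -1.08 (adjusted p = 0.00608) and 1.87 (adjusted p = 6.24e-06). Erg28, a scaffold of the enzymes that remove sterol methyl groups, was called between W/F and W/W on chow (0.48, adjusted p = 0.0447). It was the 1 gene of the list called there on the deposited scale, where 0.198% of all genes were higher and 0.288% lower. After rescaling 0 genes of the list were higher and 1 lower, against 0.192% and 0.409%, so Erg28 was no longer called higher. Mbtps1 and Mbtps2, the proteases that release SREBP-2, were not called with T0901317 in W/W, at 0.14 (adjusted p = 0.569) and 0.13 (adjusted p = 0.554).

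Some values carry an added uncertainty from shared sequence. Of the exon sequence of Acat2, 39.1% of stretches of 50 bases also occur in other annotated genes, chiefly Acat3. The share was 26.19% for Fdps, 20.81% for Tmem97 and 17.67% for Idi1, each chiefly shared with a gene model named Gm, and 9.867% for Tm7sf2, whose partner is Vps51. How reads that fit several genes were counted is not given in the sources used here.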

How the data were processed

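The authors deposited 1 table of TPM values for 36 libraries, which was used as it stood. The submitters' processing notes name Trimmomatic 0.36, STAR 2.5.2b, featureCounts, Subread 1.5.2 and the mouse build GRCm38/mm10, without roles, and the annotation is not given in the sources used here. Every column of the table matched 1 sample, 0 columns were left unused, and no 2 libraries held identical values. Low values are near whole multiples of 1 read (93.7% to 95.7% within 0.1 of a whole number, for 48970 genes with a known length), which gave depths of 18.1 to 35.8 M (1e+06) reads. The 16638 genes that reached 1 TPM in 4 or more samples were fitted on log2(TPM + 1) with limma 3.58.1 in R 4.3.3, with all 9 groups in 1 model, 16 contrasts and Benjamini-Hochberg adjustment over all genes tested in each contrast. Calls were made at an adjusted p of 0.05, and the procedure was tested on simulated data. The rescaled values divide each library by its median ratio over the 14786 genes above 0 in every sample.

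Members described in detail were those called without overlap of the groups and with at least 5 TPM, up to 3 at each end of the fold changes, beside Hmgcs1, Sqle, Idi1, Cyp51, Srebf2, Scap, Insig1 and Insig2. Further members are described by their levels in the groups, some of them with a fold change and adjusted p. The members and lists were chosen with earlier results of these data known. Alternatives were a pseudocount of 0.1, a filter of 5 TPM, no filter, rescaled TPM, a replicate block, a fit of only the groups compared, leaving out each replicate, and voom on the recovered reads, which was chosen after seeing the data. Replicate numbers were not taken to pair mice, since no comparison had all 4 same-numbered pairs above a correlation of 0.1. The nearest was W/F against W/W with T0901317, where 3 of the 4 pairs were above it, with correlations from 0.05 to 0.30 over the 4. Pairing in that comparison is therefore not excluded. Promoters are RefSeq windows of GRCm38.p6, and Fdps, Fdft1, Sqle and Stard4 were not matched there.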

Additional observations from a re-analysis of the deposited data

Results flagged for a closer look

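In 23 of 261 combinations of a member and a group, 1 liver lay far from the other three of its group, by Dixon's test of the gap at the 95% level. Chance gives about 1 in 20 such groups. In W/W vehicle replicate 3, Mvk was lowest at 3.88 TPM, where the others had 6.21 to 6.66 TPM, and Dhcr7 was lowest at 5.44 TPM, where the others had 12.5 to 13.4 TPM. In W/F vehicle replicate 4, Mvk was highest at 7.37 TPM, where the others had 6.42 to 6.51 TPM. In W/F vehicle replicate 2, Pmvk was highest at 13.8 TPM, where the others had 10.96 to 11.3 TPM. In W/F T0901317 replicate 2, Mvd was highest at 6.16 TPM, where the others had 2.39 to 2.81 TPM. In W/W chow replicate 2, Idi1 was highest at 124 TPM, where the others had 75.5 to 78.6 TPM, and Lss was highest at 34.96 TPM, where the others had 18.9 to 20.04 TPM, and Msmo1 was highest at 127 TPM, where the others had 88.4 to 91.9 TPM. In W/F chow replicate 1, Idi1 was lowest at 180.5 TPM, where the others had 218 to 225 TPM. In W/F T0901317 replicate 4, Idi1 was highest at 1.79 TPM, where the others had 0.959 to 1.09 TPM. In W/W T0901317 replicate 2, Lss was lowest at 11.97 TPM, where the others had 12.8 to 12.9 TPM. In W/W vehicle replicate 2, Cyp51 was highest at 23.2 TPM, where the others had 13.4 to 13.98 TPM. In F/F vehicle replicate 1, Lbr was lowest at 6.66 TPM, where the others had 8.21 to 8.48 TPM. In F/F vehicle replicate 3, Msmo1 was highest at 10.7 TPM, where the others had 7.08 to 7.55 TPM, and Dhcr7 was highest at 16.6 TPM, where the others had 14.8 to 14.98 TPM. In F/F T0901317 replicate 2, Hsd17b7 was highest at 7.41 TPM, where the others had 6.63 to 6.71 TPM. In F/F vehicle replicate 4, Ebp was lowest at 65.1 TPM, where the others had 74.04 to 75.5 TPM. In W/F T0901317 replicate 3, Dhcr7 was lowest at 7.46 TPM, where the others had 9.23 to 9.46 TPM. In F/F T0901317 replicate 3, Dhcr7 was lowest at 7.75 TPM, where the others had 11.3 to 11.6 TPM. In F/F vehicle replicate 2, Dhdds was lowest at 26.2 TPM, where the others had 31.1 to 31.98 TPM. In W/W T0901317 replicate 1, Tmem97 was highest at 218 TPM, where the others had 198 to 201 TPM. In W/W chow replicate 1, Insig1 was lowest at 309.9 TPM, where the others had 378 to 388 TPM. In W/W chow replicate 4, Insig2 was highest at 179.7 TPM, where the others had 84.7 to 86.4 TPM.

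Responses that differed between genotypes, by the test of the difference itself, are given as differences of log2 fold changes. For the T0901317 response of W/F minus W/W the values were 1.25 for Aacs, 0.69 for Ebp, -4.15 for Mvd, -3.78 for Sqle and -3.15 for Fdps. For that of F/F minus W/W the values were 0.31 for Ebp, -4.40 for Sqle, -3.39 for Mvd and -3.39 for Fdps. For the diet response of W/F minus W/W the values were 0.72 for Lbr, 0.60 for Ggps1, 0.58 for Nus1, -2.58 for Aacs, -2.58 for Tm7sf2 and -2.22 for Idi1. The median of all genes there was 0.49, and after rescaling 0 members were higher, so the values of Lbr, Ggps1 and Nus1 were not called higher on that scale. For the diet response of F/F minus W/W the values were 1.89 for Mvd, 1.68 for Sqle, 0.92 for Lbr, -1.56 for Tm7sf2, -1.25 for Idi1 and -0.82 for Cyp51. The value of Aacs in the T0901317 response of W/F lost its call in 9 of 16 omissions of a replicate, with adjusted p from 0.0588 to 0.0860. That of Ebp in F/F lost it in 6 of 16, with adjusted p from 0.0525 to 0.0717, and that of Cyp51 in the diet response of F/F in 7 of 16, with adjusted p from 0.0539 to 0.0902.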

How the results depend on the processing

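Rescaling to a common median gene was the choice that turned directions. It gave -0.056 for Nus1 on the diet in W/F and -0.20 for Srebf2 in W/F against W/W with vehicle. In F/F against W/W with vehicle it gave -0.60 for Hmgcs1, -0.78 for Cyp51 and -0.81 for Insig2, and with T0901317 -0.12 for Dhdds and -0.25 for Nus1. The diet response of Nus1 in W/F minus W/W became -0.040. A further 51 sign changes came where neither value was called, over 175 member values and all alternatives. The 9 members called with T0901317 in F/F became 5 with voom on recovered reads, an alternative chosen after seeing the data, and 5 to 12 when single replicates were left out. The 11 members called between W/F and W/W on chow became 1, Nsdhl, in the fit of only the groups compared. The cause was not tested. With the replicate block the counts of called members moved by less than 1.5 times, for example to 10 between W/F and W/W on chow, where Srebf2 came to an adjusted p of 0.0525. Ggps1 in F/F against W/W on chow came to 0.0519 with the block, and the T0901317 response of Insig2 in W/F minus W/W, not called without it, to 0.0262. Low levels rest on few reads, down to 20 per liver for Idi1 in F/F with T0901317.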
